A study of Mus musculus with 2 samples.

Results

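The miR-181 family of the mouse is encoded by 6 microRNA (miRNA) genes in 3 loci: Mir181a-1 with Mir181b-1 on chromosome 1, Mir181a-2 with Mir181b-2 on chromosome 2, and Mir181c with Mir181d on chromosome 8. These 6 genes were taken by symbol from the 1973 gene identifiers of each count table, with no threshold on their counts. The tables come from small RNA sequencing (fragments under 30 nucleotides, per the labels) of total RNA from newborn thymus, age 0 days, of the mouse strain B6NCrl. Each library was made from the thymus lobes of 1 pup of the same pregnancy, pup 2 for replicate 1 and pup 3 for replicate 2. No treatment and no engineered allele are recorded, and both libraries form 1 group. There is thus no contrast between conditions, and a difference between the libraries cannot be told apart from a difference in dissection, library preparation or depth. The labels record no sex and 1 donor identifier for both, and only the written descriptions of the pups mark them as 2 animals.

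A miRNA gene is transcribed as a hairpin that is cut into a 5p arm and a 3p arm. The arm that is loaded into Argonaute represses messenger RNAs that pair with its seed, bases 2 to 8. In the thymus, miR-181a is known for its abundance in immature thymocytes, where it raises the sensitivity of T cell receptor signalling by repressing phosphatases, and the locus of Mir181a-1 and Mir181b-1 is known to be needed for natural killer T cells.

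The sequences below show which members can be told apart by a short read. All 6 members had entries in the RefSeq miRNA table (build GRCm38.p6), from which the mature sequences were read, with the seed in capitals. The 6 genes encode 4 distinct 5p sequences with 1 shared seed, and no other mouse gene of that table carries this seed.
mmu-miR-181a-5p: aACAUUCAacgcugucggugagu
mmu-miR-181b-5p: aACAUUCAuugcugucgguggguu
mmu-miR-181c-5p: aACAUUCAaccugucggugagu
mmu-miR-181d-5p: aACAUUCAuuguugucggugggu

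Counting from the 5′ end, with miR-181a-5p named first, the differences from miR-181b-5p were A9U, C10U and A21G. From miR-181b-5p to miR-181d-5p the only difference within 23 compared bases was C12U. The 5p arm of miR-181c equals that of miR-181a with the base at position 11 missing. All of these differences lie outside the seed.

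The 3p arms, in contrast, are 6 different sequences with 4 seeds (capitals), so that each gene has a 3p arm of its own.
mmu-miR-181a-1-3p: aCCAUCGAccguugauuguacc
mmu-miR-181c-3p: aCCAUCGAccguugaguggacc
mmu-miR-181a-2-3p: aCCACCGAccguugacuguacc
mmu-miR-181b-1-3p: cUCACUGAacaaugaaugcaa
mmu-miR-181b-2-3p: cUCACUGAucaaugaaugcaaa
mmu-miR-181d-3p: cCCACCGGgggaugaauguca

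The 3p arms of Mir181a-1 and Mir181c share a seed, as do those of Mir181b-1 and Mir181b-2, whereas Mir181a-2 and Mir181d each have a 3p seed found in no other member. Between the copies of miR-181a the 3p arms differ by U5C and U16C (Mir181a-1 named first), and between the copies of miR-181b, over 21 compared bases, by A9U (Mir181b-1 named first).

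The paired copies are identical to the end of the 5p arm, and those of miR-181a beyond it. The following 34 bases start at the first base of the 5p arm in the hairpins of GENCODE release M21, and the capital marks the first base at which the copies differ.
Mir181a-1: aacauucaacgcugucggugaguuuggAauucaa
Mir181a-2: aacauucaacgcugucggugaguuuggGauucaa
Mir181b-1: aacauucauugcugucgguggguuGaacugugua
Mir181b-2: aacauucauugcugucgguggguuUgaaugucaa

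The miR-181a copies are identical over 27 bases, against a mature length of 23, and first differ by A28G (Mir181a-1 named first). The miR-181b copies are identical over 24 bases, which is the whole mature 5p sequence, and first differ by G25U (Mir181b-1 named first). A read of the 5p arm from its first base thus needs 28 bases to be unique to Mir181a-1 or Mir181a-2 among the 2202 miRNA genes of GENCODE M21, and 25 bases to be unique to Mir181b-1 or Mir181b-2. In Mir181c and Mir181d 11 and 12 bases are enough. From the first base of the 3p arm, 10 bases are enough in Mir181a-2, Mir181b-1, Mir181b-2 and Mir181d, and 16 in Mir181a-1 and Mir181c.

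In the tables, reads that mapped to more than 1 place were tallied apart from the genes, and they made up 56.3% and 57.5% of all reads in replicates 1 and 2. A 5p read of mature length from a copied member has its sequence at 2 loci, and the tables do not say which arm a counted read came from. The counts of Mir181a-1, Mir181a-2, Mir181b-1 and Mir181b-2 are therefore uncertain as measures of mature miR-181a and miR-181b, and those of Mir181c and Mir181d are not affected by copies of their arms among miRNA genes. Whether the arms occur elsewhere in the genome was not analysed here. Of all 22-base windows of the hairpin, 89.4% in Mir181a-1 and 87.3% in Mir181a-2 occur in no other miRNA gene. In Mir181b-1 it was 91.5% and in Mir181b-2 92.6%. These percentages count every window of a hairpin equally, including those outside the arms. The stretch shared by 2 copies covers the whole mature 5p arm. The percentages are therefore not shares of reads, and the share of reads that fit both copies was not tested.

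**Figure D1:**
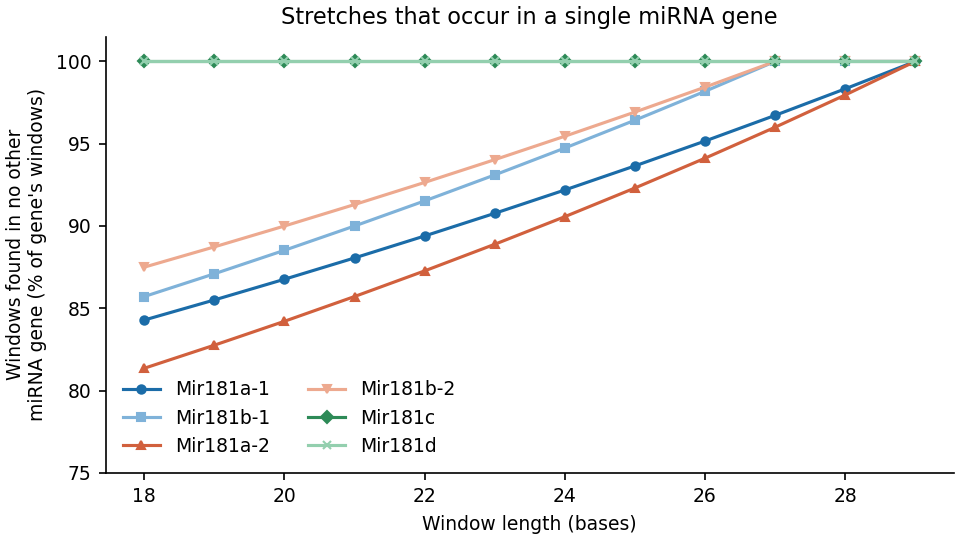
Share of the windows of each hairpin that occur in no other miRNA gene of GENCODE M21 (vertical axis, % of the gene's windows, starting at 75) against window length in bases (horizontal axis), 1 line per gene. Mir181c and Mir181d stand at 100% from 18 bases on, the miR-181b copies reach 100% at 27 bases and the miR-181a copies at 29. Windows are counted equally along each hairpin, so the values are not shares of reads.

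Each locus holds its genes on the same strand. On the plus strand of chromosome 1 (build GRCm38), Mir181a-1 (ENSMUSG00000065565.1, 137966455 to 137966541) and Mir181b-1 (ENSMUSG00000065458.1, 137966639 to 137966718) are 97 bases apart in an intron of the noncoding gene Gm4258. Mir181b-1 also lies in an exon of the noncoding gene A430106G13Rik, which begins within Mir181a-1, and both genes are opposite an intron of Gm26936. Mir181a-2 (ENSMUSG00000065423.1, chromosome 2, 38852735 to 38852810, plus strand) and Mir181b-2 (ENSMUSG00000065578.1, 38853830 to 38853918) are 1019 bases apart, opposite an intron of the nuclear receptor gene Nr6a1, and Mir181b-2 is also opposite an exon of Gm44144. Mir181d (ENSMUSG00000076338.1, chromosome 8, 84178716 to 84178787, minus strand) and Mir181c (ENSMUSG00000065483.1, 84178873 to 84178961) are 85 bases apart in an intron of Nanos3, a gene of germ cell development. Positions are those of GENCODE M21, in which Mir181c carries a later version of its identifier than in the tables. In all 6 genes the reads lay on the gene's own strand, with 0 opposite-strand reads beside 171973 gene-strand reads in replicate 1 and 74002 in replicate 2, which allows a share of up to 0.00174% and 0.00405%. This holds for most genes: 272 of the 294 detected genes had 0 opposite-strand reads in both libraries.

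Folded with RNAfold, the hairpin of Mir181c had the lowest minimum free energy of the family, -45.6 kcal/mol over 89 bases with 58.4% G and C. The other 5 ranged from -27.1 in Mir181d to -33.2 in Mir181b-2, with 42.5% to 51.4% G and C. Per base, Mir181c stood at -0.512 kcal/mol, and the others lay between -0.334 in Mir181a-1 and -0.399 in Mir181b-1. The most stable hairpin was thus not that of the most counted gene.

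Levels were expressed as counts scaled to depth (CPM, per 1000000) of the 2734133 gene-strand counts in replicate 1 and the 1289151 in replicate 2, a 2.12-fold difference in depth, and 3 counts equalled 1.10 and 2.33 CPM. Each ± is the SD of the 2 libraries (n = 2). Intervals and floors cover counting error only, since reads without molecular identifiers are not independent molecules. In bulk tissue, fewer cells of a type and less RNA per cell cannot be told apart. All 6 members had at least 10 counts in both libraries, the limit for calling a gene detected, which 294 of the 1973 genes passed. Since a read of this assay is a whole small RNA, counts were compared between genes directly and also per base of the annotated gene.

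Mir181a-1, the chromosome 1 gene for miR-181a, led the family with 101764 counts in replicate 1 and 46465 in replicate 2, which was 37220 CPM (95% Wilson interval 36996 to 37445) and 36043 CPM (35723 to 36366). It ranked 7 of all genes by mean gene-strand CPM, at 7 and 8 in the single libraries. That ranking leaves out reads on the strand opposite to a gene, which were 387318 and 178605 at Mir142b. It also leaves out multimapping reads, 56.3% and 57.5% of all reads in replicates 1 and 2, and so ranks only reads assigned to a single gene. Mir181b-2, the chromosome 2 gene for miR-181b, a miRNA also studied in endothelial inflammation, followed with 30723 and 9944 counts, or 11237 and 7714 CPM. Its level was the least even of the abundant members, at rank 23 in replicate 1 and 38 in replicate 2.

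Mir181c, whose product is known to repress interleukin-2 in T cells, had 23577 and 11371 counts, or 8623 and 8821 CPM (8722 ± 140). Its libraries lay closer together than those of any other member in relation to the mean. Mir181d, its partner, had 15195 and 5768 counts, or 5558 and 4474 CPM (5016 ± 766). These are the members whose 5p arm is theirs alone.

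The other copies were far lower. Mir181a-2, which encodes the same miR-181a-5p as Mir181a-1, had 352 and 344 counts, or 129 and 267 CPM, at ranks 174 and 144. Mir181b-1, which encodes the same miR-181b-5p as Mir181b-2, had 362 and 110 counts, or 132 and 85.3 CPM, at ranks 172 and 188. Mir181a-2 was higher in replicate 2 and Mir181b-1 in replicate 1, so that in replicate 1 they were nearly equal and in replicate 2 Mir181a-2 exceeded Mir181b-1 by 3.13 times.

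**Figure D2:**
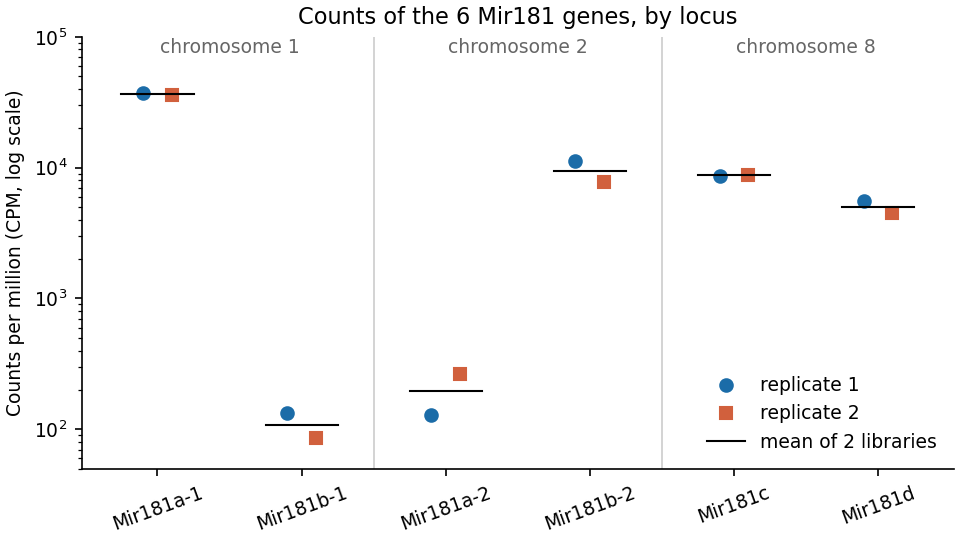
CPM of each member in each library on a log axis, grouped by locus, with circles for replicate 1, squares for replicate 2 and a bar at the mean. Mir181a-1, Mir181b-2, Mir181c and Mir181d lie between 4474 and 37220 CPM, and Mir181b-1 and Mir181a-2 between 85.3 and 267.

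The order by mean level was Mir181a-1, Mir181b-2, Mir181c, Mir181d, Mir181a-2 and Mir181b-1. Mir181b-2 and Mir181c changed places between the libraries (ratio 1.30 and 0.875), and so did Mir181a-2 and Mir181b-1 (0.972 and 3.13). These neighbours did not differ beyond their spread, whereas the ranges of all other neighbours in the order were apart. Per base of the gene the order was the same, from 421 CPM per base ± 9.56 in Mir181a-1, 106 ± 28.0 in Mir181b-2, 98.0 ± 1.57 in Mir181c and 69.7 ± 10.6 in Mir181d down to 2.60 ± 1.28 in Mir181a-2 and 1.36 ± 0.416 in Mir181b-1.

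With 2 libraries no pattern across samples can be matched, so likeness to other genes was taken as nearness in mean CPM. Mir181a-1 stood between Mir21a (40296 ± 1388) and Mir126a (32674 ± 6540), Mir181b-2 between Mir18 (9689 ± 93.4) and Mir429 (9335 ± 730), and Mir181c between Mir20b (8881 ± 786) and Mir140 (8128 ± 550). Mir181d stood between Mir425 (5439 ± 553) and Mir363 (5002 ± 107). Mir181a-2 stood between Mir125b-2 (206 ± 8.57) and Mir196b (198 ± 2.98), and Mir181b-1 between Mir345 (111 ± 2.50) and Mir204 (107 ± 4.44).

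The chromosome 1 locus held most of the family's counts. It held 59.4% of them in replicate 1 (95% Wilson interval 59.2 to 59.6) and 62.9% in replicate 2 (62.6 to 63.3). The chromosome 8 locus held 22.5% and 23.2%, and the chromosome 2 locus 18.1% and 13.9%. Set against all gene-strand counts, the chromosome 1 locus took 3.67% ± 0.0865, the chromosome 8 locus 1.37% ± 0.0626 and the chromosome 2 locus 0.967% ± 0.239. The order of the loci was the same in both libraries, and the chromosome 2 locus had the widest spread.

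In each of the chromosome 1 and chromosome 2 loci a single gene held nearly all counts, and it was the a gene in the former and the b gene in the latter. Mir181a-1 exceeded Mir181b-1 by 281 times in replicate 1 and 422 times in replicate 2. Mir181b-2 exceeded Mir181a-2 by 87.3 and 28.9 times. In the chromosome 8 locus, where both arms of both genes are unique, Mir181c exceeded Mir181d by 1.55 and 1.97 times, or 1.43 times per base on average. The 4 leading genes together held 99.5% ± 0.140 of the family's counts. These ratios and shares also leave out multimapping reads.

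**Figure D3:**
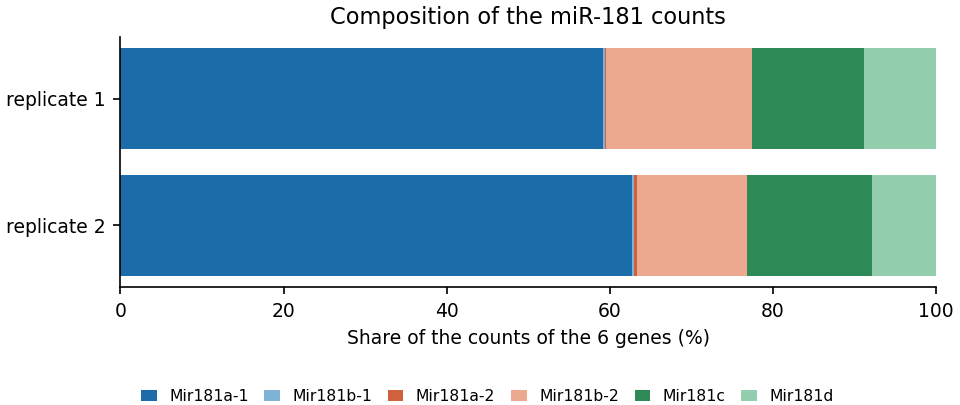
Share of the counts of the 6 genes (horizontal axis, %, from 0 to 100) in each library, 1 bar per library, stacked by gene in the order of the loci. Mir181a-1 fills 59.2% and 62.8% of the bars, and Mir181b-1 and Mir181a-2 appear as thin lines at 0.149% to 0.465%. Multimapping reads are left out, so the bars do not show the mature miRNA made by each gene.

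These ratios need no scaling between libraries, so the ratio in replicate 2 over that in replicate 1 could be given as an odds ratio with an exact 95% interval of counting error. It was 1.50 (1.21 to 1.88) for Mir181a-1 over Mir181b-1, 0.331 (0.284 to 0.386) for Mir181b-2 over Mir181a-2 and 1.27 (1.22 to 1.32) for Mir181c over Mir181d. Partners within each locus thus differed in their balance between the libraries by more than counting error. Between the loci, Mir181a-1 over its copy Mir181a-2 had an odds ratio of 0.467 (0.401 to 0.544), from 289 in replicate 1 to 135 in replicate 2. Mir181b-2 over its copy Mir181b-1 stood at 84.9 and 90.4, with an odds ratio of 1.07 (0.857 to 1.33), an interval that includes 1.

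The imbalance between copies was set beside that of other miRNA genes that encode an identical mature sequence, in a comparison chosen after the values were seen. Matching the mature sequences of the RefSeq miRNA table by symbol gave 21 such pairs whose higher copy was detected, 2 of them from the miR-181 family. Pairs that this match did not find are left out, so the set may be incomplete. The mean ratio of the higher to the lower copy was 212 for the miR-181a copies and 87.6 for the miR-181b copies, and it ranged from 1.09 to 44.5 in the 19 other pairs, with a median of 5.02. Pairs with few counts cannot reach high ratios. Mature-length reads of the shared sequence occur in both copies of a pair, and multimapping reads were tallied apart. The ratios therefore compare only the reads assigned to a single gene. They cannot be read as ratios of the mature miRNA made by each copy. Among the 5 pairs whose higher copy had at least 1000 CPM, the others were Mir16-1 over Mir16-2 at 5.53, Mir92-1 over Mir92-2 at 3.59 and Mir128-1 over Mir128-2 at 2.89. Some of the 19 pairs share a gene, so they are not independent, and no test was made.

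**Figure D4:**
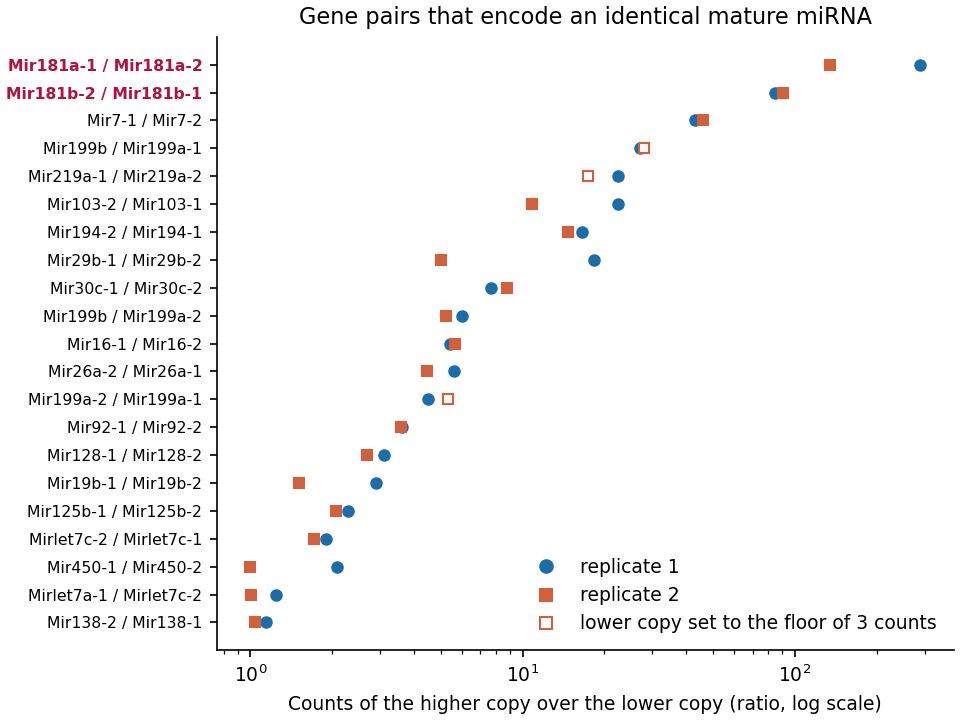
Counts of the higher copy over the lower copy (horizontal axis, ratio, log scale) for the 21 matched gene pairs that encode an identical mature miRNA, with circles for replicate 1, squares for replicate 2 and open symbols where the lower copy was set to the floor of 3 counts. The miR-181 pairs, in bold, have the largest ratios, 135 to 289 and 84.9 to 90.4. Multimapping reads are not in these counts.

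Between the littermates, 5 of the 6 members differed by more than counting error. A two-sided exact binomial test, scaled with TMM, was applied to the counts of all 294 detected genes, with Benjamini-Hochberg adjustment at 0.05. The test sets 1 library against 1 and has no replicate check. It called 128 genes, or 43.5% of those tested, with 20.1% higher and 23.5% lower in replicate 2, and of the members it called 1 higher and 4 lower. Calls by this test are more frequent at higher counts. Under a filter of at least 100 counts in both libraries, which all 6 members passed, it called 115 of 191 genes, or 60.2%.

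Mir181a-2 was the member higher in replicate 2, with a log2 ratio of 0.99 (0.77 to 1.20, the exact 95% interval) and an adjusted exact binomial p of 3.29e-18. Its size was reached by 7 of the 294 genes, itself included. Mir181b-1, lower in replicate 2, had -0.70 (-1.02 to -0.39, adjusted exact binomial p = 1.41e-05), and Mir181b-2 had -0.61 (-0.64 to -0.58). The b copies, on different chromosomes, thus had overlapping intervals.

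Mir181d was lower with a log2 ratio of -0.38 (-0.42 to -0.34) and Mir181a-1 with -0.11 (-0.13 to -0.097), which is 0.925 times the scaled level of replicate 1. Mir181c did not pass, with -0.034 (-0.066 to -0.0014, adjusted exact binomial p = 0.0891), and its sign turned to 0.033 when scaled to total counts, as CPM is. Partners of the same locus therefore had different ratios in each of the 3 loci. The median log2 ratio was -0.25 over the 6 members and -0.030 over all 294 genes, and the median absolute log2 ratio was 0.49 against 0.21.

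**Figure D5:**
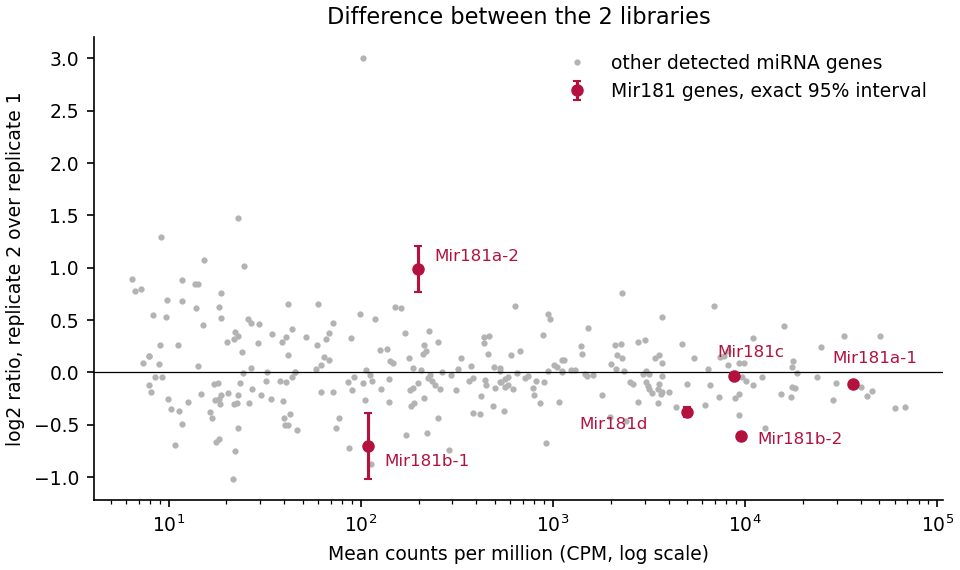
log2 ratio of replicate 2 over replicate 1 (vertical axis) against mean CPM (horizontal axis, log scale) for the 294 detected miRNA genes, with the members in red and bars for their exact 95% intervals of counting error. Mir181a-2 lies above the line at 0.99, Mir181b-1 and Mir181b-2 lie at -0.70 and -0.61, and Mir181a-1 and Mir181c lie near 0.

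These calls rest on counting error alone. A negative binomial test in edgeR, whose common dispersion (a coefficient of variation of 0.154) had to be estimated from the same 2 libraries that it compares, called 1 of the 294 genes (0.34%) and none of the members, and 15 genes passed unadjusted, 2 of them members (Mir181a-2 and Mir181b-1). The adjusted edgeR p of the members ranged from 0.354 in Mir181a-2 to 1. The log2 ratios were nearly those given above (0.98 in Mir181a-2 and -0.61 in Mir181b-2), and since the difference between the libraries sets the spread in this test, the loss of calls says nothing about whether the members differ between pups.

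Shared sequence was also set beside the ratios. Of the 294 detected genes, 74 share a stretch of 20 bases on either strand with another miRNA gene, among them the 4 copied members, each of which shares it with its own copy. Genes that overlap another miRNA gene at the same place, also on the opposite strand, were counted as sharing, so the set is wider than genes with copies at other loci. The 70 other sharing genes had a median absolute log2 ratio of 0.22, close to the 0.20 of the 218 other genes that share none, and the 4 copied members had 0.65. Mir181c and Mir181d, which share none, had 0.034 and 0.38. Whether multimapping shaped the ratios of the copied members was not tested.

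Other miRNAs of thymocytes and lymphocytes, a list of 19 genes of which 16 matched a symbol in the tables and 15 were tested, had 4 genes higher, 10 lower and 1 not called by the exact binomial test, with a median log2 ratio of -0.18, beside 20.1% higher and 23.5% lower over all genes tested. These calls cover counting error only. The listed Mir142, Mir18a and Mir146a matched no symbol. Genes under the symbols Mir18 and Mir146 were left out of the list's calls, median and summed level. Both were called lower in replicate 2 by the exact binomial test, with log2 ratios of -0.047 and -0.67. The summed gene-strand level of the 16 matched genes was 210876 CPM in replicate 1 and 198908 in replicate 2. They were led by Mir17 (45956 ± 2486), a driver of lymphocyte proliferation, Mir21a, Mir20a (28814 ± 2851) and Mir15a (17873 ± 1534). Among these matched genes Mir181a-1 would stand between Mir21a and Mir20a. In replicate 2 the endothelial marker Mir126a was higher (28049 and 37298 CPM). The 7 mesenchymal markers summed to 45734 and 60635 CPM, of which Mir143 alone had 42989 and 57301. Of the 5 mesenchymal markers tested, 2 were called higher in replicate 2 by the exact binomial test and 3 were not called. The 4 leukocyte markers in the tables, led by Mir155, summed to 8918 and 8633. That sum and the sum of the 16 matched genes above leave out the 387318 and 178605 reads on the strand opposite to Mir142b. These exceed the 130454 and 56978 gene-strand counts of Mir17. The 7 epithelial markers, led by Mir205, which is known in thymic epithelium, summed to 39648 and 40633 CPM, the erythroid pair led by Mir451a to 231 and 168, and the myeloid pair led by Mir223 to 940 and 801. By the exact binomial test 3 epithelial markers were called higher in replicate 2, 2 were called lower and 2 were not called. Mir451a and Mir223 were called lower, and the other gene of each pair was not called. Neural markers (58.5 and 85.3, led by Mir137, with 4 of 6 at 0 in both libraries) and striated muscle markers (481 and 742, led by Mir206, with 3 of 7 at 0) were low in these counts. Multimapping reads are not in them, so a low count or 0 of a gene with a copied arm cannot be read as absence. Of the 3 striated muscle markers tested, Mir206 (445 and 442 CPM) did not pass, while 2 known from heart muscle, named after their values were seen, were called higher in replicate 2 by the exact binomial test: Mir208b, with 21.9 and 185 CPM and a log2 ratio of 3.01, and Mir499, with 11.7 and 34.1 CPM and 1.48. The part of these cell types in the members' differences was not tested.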

How the data were processed

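The authors deposited 1 table of raw read counts per library, with 3 unnamed count columns: both strands, gene strand and opposite strand, as the values show. Reads were mapped to mm10 and counted over GENCODE M4, per the deposited text files. Which aligner and counter were used is not given in the sources used here. Totals for unmapped (10.6% and 9.17% of reads in replicates 1 and 2), multimapping and unannotated reads (2.99% and 2.57%) name no gene and stayed out of library sizes and tests.

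Of 1973 identifiers, 1894 matched GENCODE M21 (GRCm38), used for symbols, positions and hairpins. The 79 others had 0 gene-strand counts. CPM is the gene-strand count per 1000000 of their sum.

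Library sizes were scaled by TMM (edgeR 4.0.16 under R 4.3.3). Exact binomial tests and intervals used scipy 1.17.1, hairpins RNAfold 2.7.2. The binomial test was tested on simulated data. With 1 group, edgeR's quasi-likelihood test has no contrast.

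The members, lists and naming rule (the members, their neighbours in mean CPM, overlapping genes and the leading genes of each list) were chosen with earlier results of these data known. Alternatives were other columns, filters, scalings (DESeq2 1.42.0 size factors among them), denominators and gene length, the negative binomial test and each library alone.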

Additional observations from a re-analysis of the deposited data

How the results depend on the processing

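Mir181a-1, Mir181a-2, Mir181b-1, Mir181b-2 and Mir181d kept their direction and their exact binomial call under unstranded counts, the other scalings, the other count filters and without the most abundant gene. The negative binomial test left 1 gene called, and none of these 5. Mir181c turned to 0.033 with total counts in place of TMM, not called, and was called lower at -0.052 with 1 count required in either library or in both. The number of calls ranged from 115 to 131 over the other alternatives. The split between higher and lower was 59 and 69 with TMM and 72 and 52 with total counts, a scaling that moves all ratios by 0.066 (log2).

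The family's share of 6.02% was 5.14% with unstranded counts, 1.56% of all reads in the table, 6.45% without the most abundant gene, and 1.37% for Mir181c and Mir181d alone, the members whose mature sequences occur in no other annotated miRNA gene. Per base of gene length, the chromosome 8 locus held 23.99% of the family, Mir181c exceeded Mir181d by 1.43 times and Mir181b-2 exceeded Mir181b-1 by 78.8 times. The order of the members did not change per base or with unstranded counts. Mir181b-1, at 110 counts in replicate 2, is the member most limited by depth. In single libraries the ratio of Mir181b-2 to Mir181a-2 was 28.9 or 87.3.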

Other observations

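Mir181c and Mir181d lie 29556 bases from Mir23a, the first gene of a cluster with Mir27a and Mir24-2 on chromosome 8. Mir23a had 23415 CPM in replicate 1 and 23713 in replicate 2, Mir27a 1208 and 1285, and Mir24-2 419 and 496. Beside them, Mir181c had 8623 and 8821 CPM and Mir181d 5558 and 4474, so that Mir23a lay above both and Mir27a and Mir24-2 lay below both in each library. No test was made between these genes. Whether multimapping affected the counts of Mir23a, Mir27a and Mir24-2 was not analysed.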
